A study of Homo sapiens with 4 samples.

Results

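The clustered replication-dependent histone genes are the 69 RefSeq protein-coding genes on chromosomes 1 to 22 whose symbols are H1- followed by 1 to 6, or H2AC, H2BC, H3C or H4C followed by a number. They were picked by name out of 18973 protein-coding genes, with no measured value used. The set holds 6 H1, 17 H2A, 18 H2B, 13 H3 and 15 H4 genes. Peaks of γH2AX, the phosphorylated form of histone variant H2AX that cells place around broken DNA, were described at these genes in HepG2, an established human liver cancer line. The assay was CUT&Tag, in which a transposase tethered to an antibody cuts and tags the DNA beside it. The lipid-overload library is titled PAOA and the mock library DMSO, and for neither do the labels give agents, doses or times. Each assay used 100000 cells and 14 PCR cycles, and both arms share the line and its serum-containing medium. The series has 4 samples, and its 2 IgG samples, 1 per condition, were not analysed here. Each condition is 1 library, so no difference has a replicate check and none was tested. Peak lists hold no expression values, so the label of the cell line was not checked against marker genes.

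Replication-dependent histone genes supply the histones that package new DNA during S phase. H3 and H4 form the core tetramer of the nucleosome, H2A and H2B add to it as dimers, and H1 binds the linker DNA between nucleosomes. The genes are short, mostly without introns, and stand in dense clusters, where many H2A and H2B genes are transcribed away from each other out of a shared promoter. Their messenger RNAs end in a conserved stem-loop in place of a poly(A) tail, and their transcription and processing factors gather at the clusters in the histone locus body.

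The promoters below are shown because the main contrasts among the histone genes fall on them. H2BC11 carries the highest histone peak of both lists, H2AC20 and H2BC26 the highest peaks listed in lipid overload alone, H4C8 an H4 peak of both lists, and H4C14 stands for the genes without a peak. Each is the RefSeq sequence from 250 bases before to 50 bases after the gene's start, on the gene's strand, from build GRCh38.p14. They lie at chr6:27132746-27133045 (H2BC11, minus strand), chr1:149886668-149886967 (H2AC20, plus), chr1:228457853-228458152 (H2BC26, plus), chr6:26285485-26285784 (H4C8, minus) and chr1:149832407-149832706 (H4C14, plus). Capitals mark TATAAA (the TATA box), CCAAT (the CCAAT box) and ATTTGCAT (the octamer bound by POU2F1), read on either strand, and on opposite strands TATA matches can overlap.
H2BC11: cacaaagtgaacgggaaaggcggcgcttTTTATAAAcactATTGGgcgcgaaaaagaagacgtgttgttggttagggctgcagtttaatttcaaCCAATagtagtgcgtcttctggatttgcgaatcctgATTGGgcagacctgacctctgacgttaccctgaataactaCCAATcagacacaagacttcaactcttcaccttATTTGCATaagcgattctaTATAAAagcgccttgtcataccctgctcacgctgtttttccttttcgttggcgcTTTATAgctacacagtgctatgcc
H2AC20: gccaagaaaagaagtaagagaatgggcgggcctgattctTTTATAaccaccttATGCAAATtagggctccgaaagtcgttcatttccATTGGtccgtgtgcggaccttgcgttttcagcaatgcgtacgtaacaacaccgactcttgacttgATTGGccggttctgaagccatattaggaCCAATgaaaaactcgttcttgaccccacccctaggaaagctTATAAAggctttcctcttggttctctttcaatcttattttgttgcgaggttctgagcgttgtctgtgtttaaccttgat
H2BC26: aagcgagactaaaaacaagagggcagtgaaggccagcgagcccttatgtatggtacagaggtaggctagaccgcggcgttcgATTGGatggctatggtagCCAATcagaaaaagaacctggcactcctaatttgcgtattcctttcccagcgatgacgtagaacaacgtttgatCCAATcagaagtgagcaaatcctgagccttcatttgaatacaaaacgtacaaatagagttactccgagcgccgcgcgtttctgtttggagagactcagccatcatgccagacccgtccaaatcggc
H4C8: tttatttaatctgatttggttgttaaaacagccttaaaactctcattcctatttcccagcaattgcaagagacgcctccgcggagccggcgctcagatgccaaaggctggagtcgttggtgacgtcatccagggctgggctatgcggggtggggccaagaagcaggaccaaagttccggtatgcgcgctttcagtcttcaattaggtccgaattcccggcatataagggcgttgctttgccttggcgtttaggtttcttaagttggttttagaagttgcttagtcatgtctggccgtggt
H4C14: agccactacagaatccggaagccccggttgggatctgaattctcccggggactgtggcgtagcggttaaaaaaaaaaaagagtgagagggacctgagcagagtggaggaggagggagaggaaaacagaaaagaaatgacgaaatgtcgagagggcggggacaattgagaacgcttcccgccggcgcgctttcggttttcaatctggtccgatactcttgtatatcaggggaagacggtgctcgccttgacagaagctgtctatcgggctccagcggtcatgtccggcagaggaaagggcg

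The H2BC11 and H2AC20 windows lay wholly inside a lipid-overload peak, with 300 of 300 bases covered. The H2BC26 window was covered over 282 bases and the H4C8 window over 173. In mock, 205 bases of the H2BC11 window were covered, and none of the H2AC20, H2BC26 or H4C8 windows. The H4C14 window held no peak in either list, which is uncertain because H4C15 has the same promoter.

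A peak within 1 kb of either end was listed for 29 of the 69 histone genes in lipid overload and for 5 in mock. These are 42.0% (30.2 to 54.5) and 7.25% (2.39 to 16.1), where intervals are exact binomial at 95% and cover counting error only. Over all protein-coding genes, 44.3% had such a peak in lipid overload and 13.8% in mock, so the histone share was near the background in lipid overload, and in mock the background lay inside the histone interval. The 5 genes marked in mock were all marked in lipid overload, which left 24 in lipid overload only (34.8%, against 31.9% of all genes) and 0 in mock only (against 1.37%). Being marked in both lists held for 5 of 69 histone genes, against 12.4% of all genes, and neither list marked 40 of the 69.

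The counts depended on the strength a peak had to reach. With peaks of −log10 q of at least 5 only, 18 histone genes (26.1%) were marked in lipid overload and 2 (2.90%) in mock, against 30.4% and 3.97% of all protein-coding genes. With the lipid-overload list shortened by −log10 q to the length of the mock list, 15 histone genes (21.7%) were marked in lipid overload and 5 in mock, against 26.4% and 13.8% of all genes. With gene ends of 3 kb, 34 histone genes were marked in lipid overload and 5 in mock, against 52.0% and 17.5%. With peaks of fold at least 5 only, 28 histone genes (40.6%) were marked in lipid overload and 4 (5.80%) in mock. All protein-coding genes then stood at 35.5% and 8.38%. At that setting the histone share lay above the background in lipid overload and below it in mock. Under the other settings given here it lay below the background in both lists. It was higher in lipid overload than in mock under each of them.

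Neighbouring histone genes shared peaks, so the 29 genes rested on 19 distinct lipid-overload peaks and the 5 genes on 3 distinct mock peaks. Of the 19 peaks, 12 lay at the ends of at least 2 histone genes. Histone genes also offer less sequence to a peak, since their 1 kb windows covered 2.13 kb a gene against 3.63 kb over all protein-coding genes. Per Mb of gene-end sequence there were 129 lipid-overload peaks at histone genes (77.9 to 202, exact Poisson) and 120 at all protein-coding genes (117 to 123). In mock there were 20.4 (4.21 to 59.7) and 32.6 (31.2 to 33.9). Other protein-coding genes up to 1 kb long, 424 in all, were marked in 11.6% of cases in lipid overload and 4.01% in mock.

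**Figure D1:**
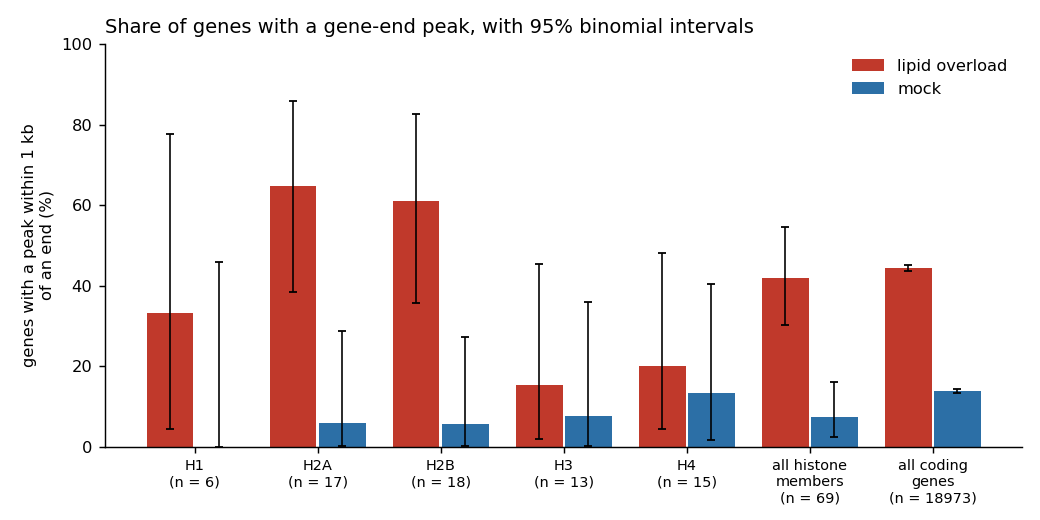
Bars give the percentage of genes with a peak within 1 kb of an end, by histone type, for all 69 histone genes and for all 18973 protein-coding genes, lipid overload in red and mock in blue, with exact 95% binomial intervals as lines. In lipid overload H2A (64.7%) and H2B (61.1%) stand above H1, H3 and H4, while no mock bar of a histone type passes 13.3%.

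The histone types were not marked alike in lipid overload, in a split computed after the data were seen. It counts H2AC18, H2AC19, H3C14, H3C15, H4C14 and H4C15 as unmarked, though promoter copies, described below, make the lack of a peak there uncertain. H4C11 and H4C12, also counted as unmarked, have promoters equal at 295 of 300 bases. Among H2A and H2B genes, 22 of 35 had a gene-end peak (62.9%, 44.9 to 78.5), and among H1, H3 and H4 genes 7 of 34 (20.6%, 8.70 to 37.9), where all protein-coding genes stood at 44.3%. The intervals did not overlap, but they treat genes as separate, and H2A and H2B neighbours share peaks. The counts moved to 13 against 5 with peaks of −log10 q of at least 5, to 12 against 3 with lists of equal length and to 23 against 11 with gene ends of 3 kb. Counted as distinct peaks, H2A and H2B ends held 14 in 71.68 kb, or 195 per Mb (107 to 328). H1, H3 and H4 ends held 6 in 87.15 kb, or 68.8 per Mb (25.3 to 150), and these intervals overlap. One of the peaks, at H2BC12 and H4C9, counts in both sets. In the 11 H2A and H2B pairs described below, 16 of 22 genes were marked in lipid overload (72.7%, 49.8 to 89.3), on 9 distinct peaks. Of the H2A and H2B genes outside these pairs, 6 of 13 were marked (46.2%, 19.2 to 74.9), near the 44.3% of all genes. The share was higher in the pairs, where a peak can mark both genes, but these intervals overlap. The genes outside include H2AC12 and H2BC12, both marked and left out only because H2AC12 has no listed start. They also include H2AC21, marked by the peak of a pair. The part of pairing in the H2A and H2B share was not tested. In mock the split was not seen: 2 of 35 H2A and H2B genes and 3 of 34 H1, H3 and H4 genes were marked, on 1 and 2 distinct peaks, where all genes stood at 13.8%.

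Among linker histones, H1-2 and H1-4 had a lipid-overload peak and H1-1, H1-3, H1-5 and H1-6 had none. H1-2 had 8 fragments over the summit (3.45 to 15.8, exact Poisson) at chr6:26056283-26056496 (hg38), 48 bp into the gene. H1-4 had 9 fragments (4.12 to 17.1) at chr6:26156493-26156645, 218 bp into the gene. Neither gene had a mock peak. The fragment number is that of the authors' peak summit, worked out from their fold and p values.

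Of 17 H2A genes 11 were marked in lipid overload, and of 18 H2B genes also 11. Where RefSeq promoters gave both starts, 11 pairs of an H2A and an H2B gene started on opposite strands and ran apart, with 194 to 248 bp between starts. H2AC12 has no start in that table, so it and its neighbour H2BC12, which share a lipid-overload peak, are not among the 11. A lipid-overload peak stood at the ends of 8 of the 11 pairs, and a mock peak at 1. In 3 pairs, H2AC20/H2BC21, H2AC25/H2BC26 and H2AC11/H2BC11, the lipid-overload peak covered the whole space between the starts, and in mock the H2AC11/H2BC11 peak covered 155 of its 247 bp. In lipid overload a peak covered 102 of 245 bp in the pair H2AC6/H2BC4 and 77 of 193 bp in the pair H2AC15/H2BC15. In the pairs H2AC8/H2BC8, H2AC13/H2BC13 and H2AC17/H2BC17 it lay over a gene instead. The pairs H2AC1/H2BC1, H2AC7/H2BC7 and H2AC14/H2BC14 had no peak in either list.

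H2BC11 and H2AC11, on chromosome 6, had the highest histone peak of each list. Their shared peak held 22 fragments in lipid overload (13.8 to 33.3) at chr6:27132673-27133156, against 10 in mock (4.80 to 18.4) at chr6:27132673-27132950. In the lipid-overload list 5.87% of peaks ranked above it by −log10 q, and in the mock list 6.94%. The summit lay 60 bp before the H2BC11 start in lipid overload and 10 bp before it in mock.

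The next peaks by fragment number were listed in lipid overload alone. The space between H2BC21 and H2AC20, also within 1 kb of H2AC21, held 18 fragments (10.7 to 28.4) at chr1:149886576-149887007. H2AC25 and H2BC26, the pair far out on the long arm of chromosome 1, held 14 (7.65 to 23.5) at chr1:228457868-228458149. H2BC3 held 13 (6.92 to 22.2), with its summit 68 bp before the start and the H2A pseudogene H2AC5P within 1 kb. These summits stood just outside the genes, on the promoter side.

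H2BC5 also held 13 fragments (6.92 to 22.2), but at the far end of its annotated span. RefSeq gives H2BC5 13229 bp, much longer than its neighbours, and the peak at chr6:26171885-26172031 had its summit 613 bp past that span, in the noncoding RNA gene H2BC6-AS1. H2BC8 and H2AC8 shared a peak of 12 fragments (6.20 to 21.0), 328 bp into H2AC8. H2BC12, another long annotation, had a peak at each end. The one with 10 fragments (4.80 to 18.4) lay at the start of H4C9, and the one with 9 (4.12 to 17.1) lay 111 bp before the H2BC12 start, beside H2AC12. None of these had a mock peak at an end.

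The remaining H2A and H2B peaks held 6 to 8 fragments, all in lipid overload only. H2BC4 and H2AC6 shared 2 peaks, of 8 fragments between the starts and 6 fragments inside H2AC6. H2BC13 with H2AC13, and H2AC15 with H2BC15, had 8 each (3.45 to 15.8). H2AC17 with H2BC17 had 7 (2.81 to 14.4), and H2AC16, next to the pseudogene H2BC16P, had 6 (2.20 to 13.1). At these depths a neighbour without a listed peak may differ from them by a few fragments only. The H2A genes without a peak in either list were H2AC1, H2AC4, H2AC7, H2AC14, H2AC18 and H2AC19, and the H2B genes H2BC1, H2BC6, H2BC7, H2BC9, H2BC10, H2BC14 and H2BC18.

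**Figure D2:**
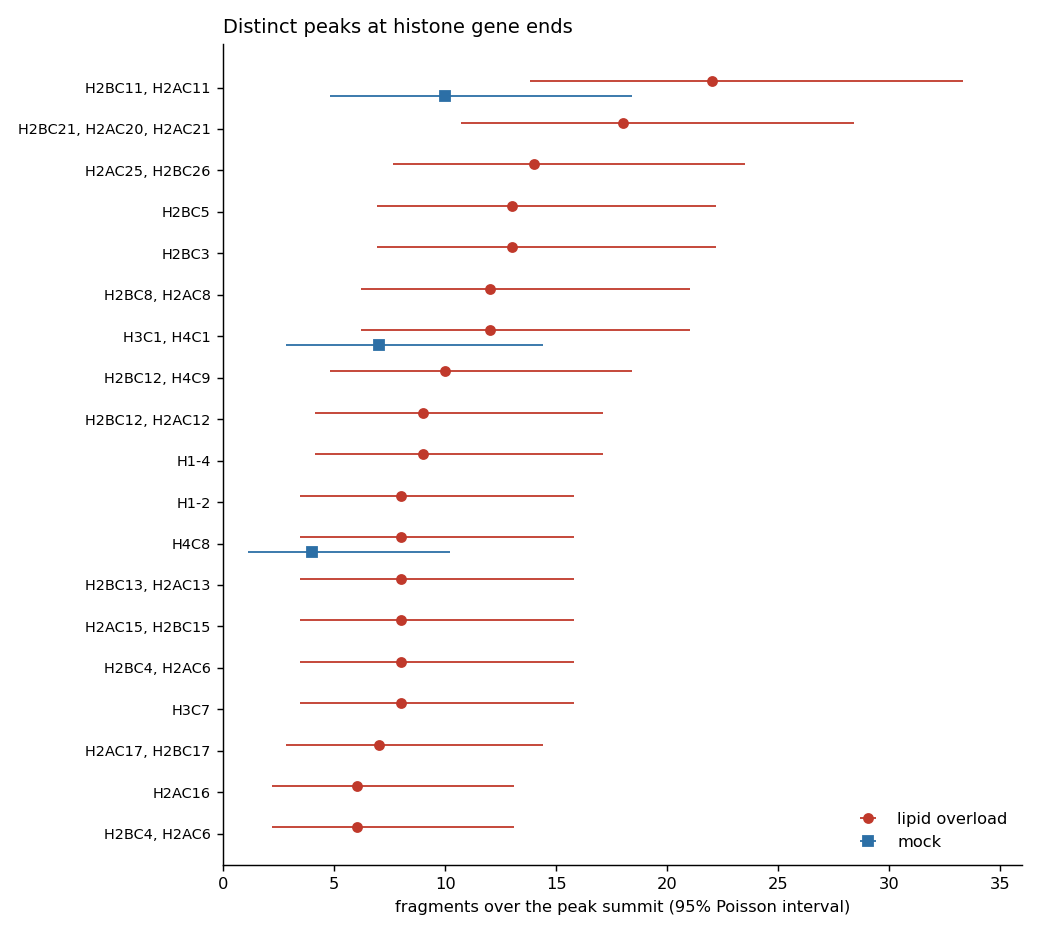
Points give the fragments over the summit of each of the 19 distinct lipid-overload peaks (red circles) and of the 3 mock peaks (blue squares) at histone gene ends, with exact 95% Poisson intervals as lines; rows name the genes at each peak. The highest row, H2BC11 and H2AC11, has 22 fragments in lipid overload and 10 in mock, and most rows lie at 6 to 14 fragments with wide, overlapping intervals.

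H3 and H4 genes, which encode the tetramer, were marked in 2 of 13 (15.4%, 1.92 to 45.4) and 3 of 15 cases (20.0%, 4.33 to 48.1) in lipid overload, where all protein-coding genes stood at 44.3%. In mock 1 of 13 (7.69%) and 2 of 15 (13.3%, 1.66 to 40.5) were marked, against 13.8% of all genes. H3C1 and H4C1 shared a peak in both lists, with 12 fragments in lipid overload (6.20 to 21.0) and 7 in mock (2.81 to 14.4). Its lipid-overload summit lay 119 bp from the nearer gene, H4C1. H4C8 had 8 fragments in lipid overload (3.45 to 15.8) and 4 in mock (1.09 to 10.2), the weakest of the shared sites. H3C7 had 8 fragments in lipid overload only, and the H4C9 peak is the one it shares with H2BC12. The other 11 H3 and 12 H4 genes had no peak at an end, among them H4C16 on chromosome 12, which stands apart from every cluster.

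At the 3 sites listed in both conditions, the lipid-overload count did not exceed the mock count by more than the estimated difference in depth. Judged by the lowest background in each list, the lipid-overload library was 2.62 times as deep as the mock library. This holds only if that background reflects the γH2AX libraries, and whether IgG served as control is not given. The ratio of fragments, lipid overload over mock, was 2.20 at H2BC11 and H2AC11 (1.000 to 5.20), 2.00 at H4C8 (0.536 to 9.08) and 1.71 at H3C1 and H4C1 (0.622 to 5.14). At H4C8 the peaks overlap, but the summit lay 104 bp before the start in lipid overload and 165 bp into the gene in mock. Its ratio therefore compares different points. Each ratio was below 2.62, and each interval takes it in. The 3 sites can be compared only because the shallower mock library listed them too, and this selection favours low ratios. The other 16 lipid-overload peaks had 6 to 18 fragments. Divided by 2.62 they came to between 2.29 and 6.86 fragments, 3 or more at 13 of them and 5 or more at 2. The lowest peak in the mock list had 3 fragments and the median 5. Most of the 16 sites, at equal signal, would thus be near the lowest peaks listed in mock, whereas the H2AC20 and H2AC25 sites, at 6.86 and 5.33, would be above the mock median. A signal in mock below the listing threshold cannot be read from the lists.

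In lipid overload, histone peaks were smaller than gene-end peaks at large. The 19 lipid-overload peaks had a median of 9 fragments (range 6 to 22), against 12 over the 8271 lipid-overload peaks at ends of protein-coding genes. Only the H2BC11 peak reached 20 fragments, 5.26% of the 19, whereas 18.8% of all gene-end peaks did. The 3 mock peaks had 4, 7 and 10 fragments, and all mock gene-end peaks had a median of 6. Median width was 214 bp at histone genes and 261 bp at all gene ends in lipid overload. A mock peak overlapped 3 of the 19 (15.8%), against 1819 of the 8271 at all gene ends.

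**Figure D3:**
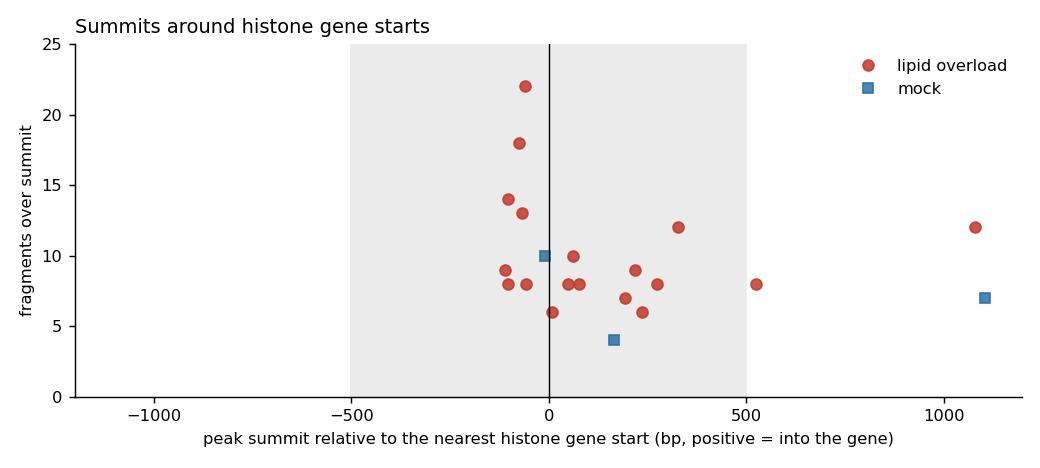
Each point is a peak, placed by the distance of its summit from the nearest histone gene start in bp, positive into the gene, and by its fragments over the summit, lipid overload as red circles and mock as blue squares. The shaded band of 500 bp either side of the start holds 16 of the 19 lipid-overload summits, and the peak past the end of H2BC5 lies outside the plot.

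Summits lay on either side of the gene starts, and 9 of the 19 in lipid overload lay inside the span of a histone gene. RefSeq promoters gave a start and strand for 64 of the 69 histone genes, and 16 of the 19 lipid-overload summits lay within 500 bp of one (84.2%). Over all lipid-overload gene-end peaks, 66.5% lay within 500 bp of a listed start, a lower figure in part by construction, because the promoter table does not give a start for every gene. Most histone genes are about as long as this distance, so it does not tell a start from a gene body. Of the 3 other summits, 1 lay 526 bp past the H3C7 start, 1 past H2BC5, and 1 beside H4C1, which has no start in the table.

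Promoter motifs followed histone type. CCAAT was present in all 51 listed promoters of H1, H2A, H2B and H3 genes, but in 3 of 13 for H4. The octamer was present in 11 of 16 H2A and 14 of 18 H2B promoters, in 1 of 11 for H3, and in none for H1 or H4. The H2A and H2B counts are not independent. In the 11 pairs the starts lie 194 to 248 bp apart, so the promoter windows of a pair overlap. A motif match there, read on either strand, can count for both genes. TATAAA was found in 65.6% of the 64. Among 35116 RefSeq promoters of the same length, 34.6% held CCAAT, 1.77% the octamer and 11.5% TATAAA. Of the 27 histone promoters whose gene had a lipid-overload peak, 26 held CCAAT, 14 the octamer and 19 TATAAA, against 28, 12 and 23 of the 37 without a peak. Types differ in both peaks and motifs, and the part of type in these shares was not tested. The printed promoters show the range, with H2BC11 holding 4 CCAAT and 1 octamer match, H2BC26 3 CCAAT matches and no octamer, and H4C8 and H4C14 none of the 3 motifs.

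The genes fell into 6 clusters, defined as runs of histone genes at most 250 kb apart, plus H4C16 alone. All protein-coding genes stood at 44.3% in lipid overload and 13.8% in mock. On chromosome 6 the largest, from H1-1 to H4C8, held 32 genes in 268.5 kb. Of these, 12 were marked in lipid overload (37.5%, 21.1 to 56.3) and 3 in mock (9.38%, 1.98 to 25.0), on 10 and 2 distinct peaks. The small cluster from H2BC11 to H2AC12 had 5 of 5 genes marked in lipid overload (47.8% to 100%), on 3 peaks in 15.25 kb. In mock 2 of its 5 genes were marked (5.27% to 85.3%), on 1 peak. The cluster from H2BC13 to H2BC17 had 7 of 16 genes marked on 4 peaks in lipid overload (43.8%, 19.8 to 70.1) and no gene marked in mock. These intervals treat genes that share peaks as separate. The pair H2AC1 and H2BC1 had no peak in either list. On chromosome 1, H2AC25 and H2BC26 shared 1 lipid-overload peak, and the 11 genes from H2BC18 to H2AC21 had 1 lipid-overload peak, at H2BC21, H2AC20 and H2AC21. Neither had a mock peak.

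**Figure D4:**
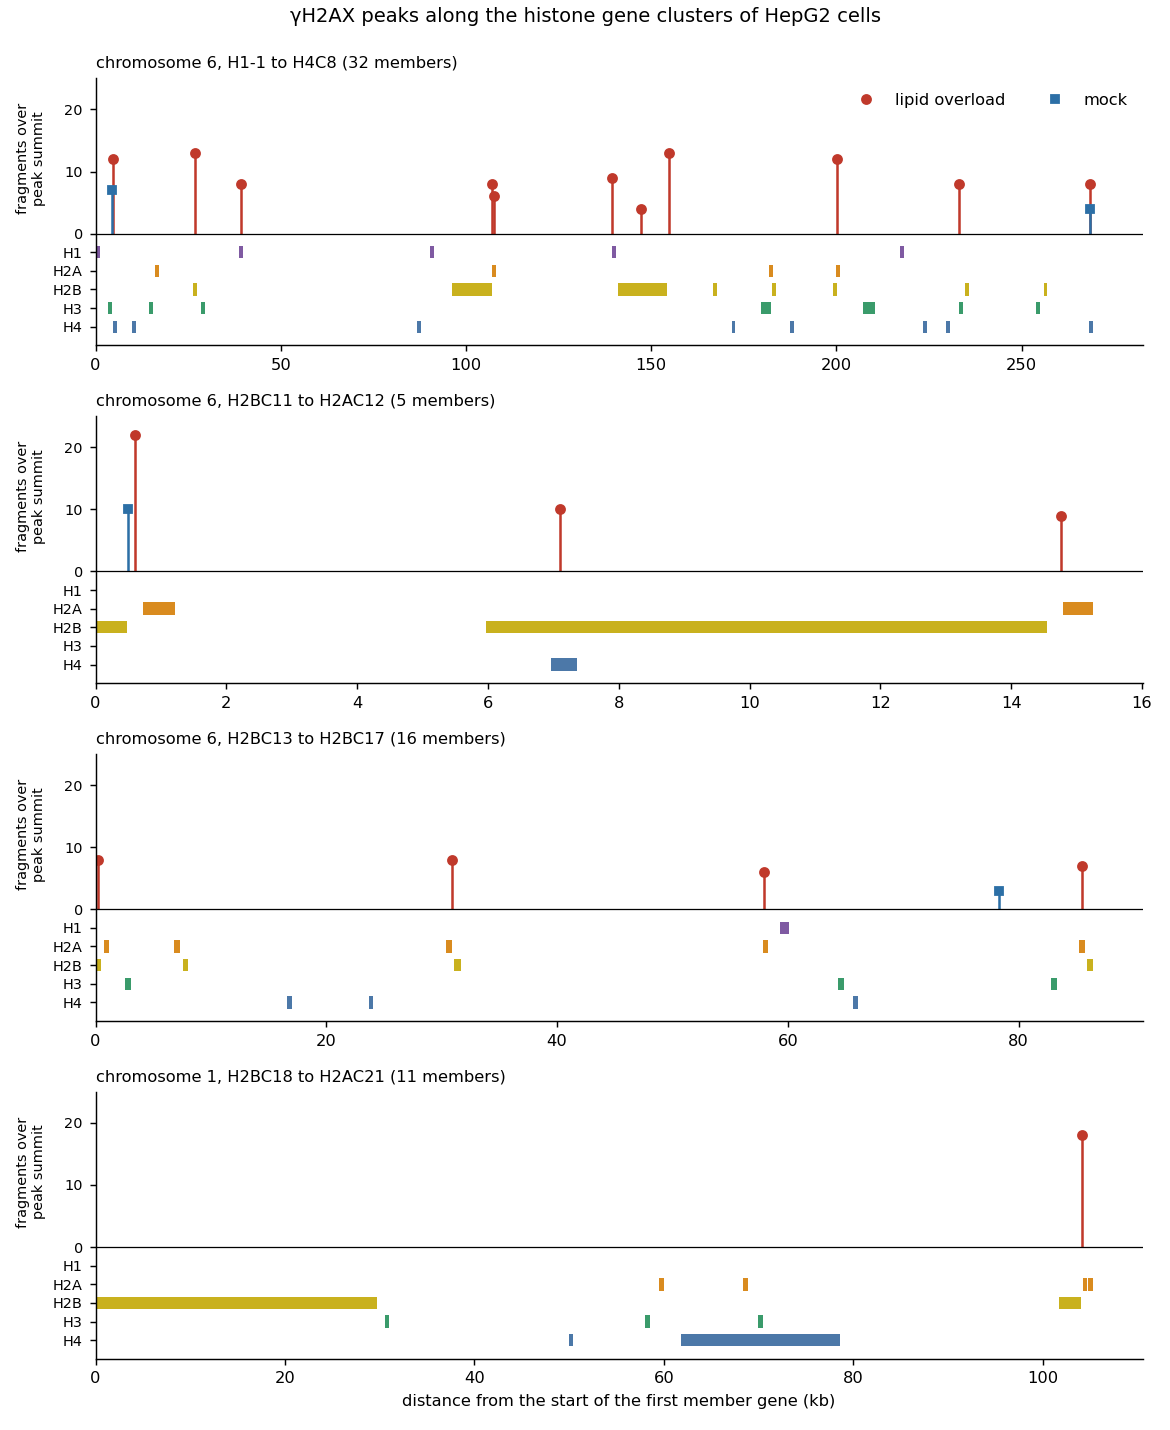
Each panel maps 1 of the 4 clusters with more than 2 histone genes, with distance from the start of its first histone gene in kb on the horizontal axis, genes as boxes in a row per histone type (very short genes widened to stay visible), and peaks as stems whose height is the fragments over the summit, lipid overload in red and mock in blue. Peaks are spaced along the chromosome 6 clusters, whereas the chromosome 1 cluster has 1 peak of 18 fragments at its far end.

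Within the clusters, marked and unmarked genes alternated in runs. The longest run without a lipid-overload peak was on chromosome 1, with 8 neighbours over 78.6 kb. It reaches from H2BC18 to the end of H4C15, whose annotated span takes in H2AC19 and H3C15. RefSeq gives H2BC18 29682 bp and H4C15 16753 bp, and the length of the run includes both. Inside the largest chromosome 6 cluster, 6 neighbours from H2BC6 to H4C5 (21.3 kb) and 4 from H3C6 to H4C7 (22.8 kb) had none. In the H2BC13 to H2BC17 cluster the runs were 5 genes from H3C10 to H4C12 (21.5 kb) and 4 from H1-5 to H3C12 (24.0 kb). Mock had no peak at any of these genes either, only 1 of 3 fragments (0.619 to 8.77) between H4C13 and H3C12, 4534 bp from H3C12.

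Copies complicate the unmarked chromosome 1 run. The promoters of H4C14 and H4C15 were the same at 300 of 300 bases, those of H2AC18 and H2AC19 at 299 of 299 after a shift of 1 bp, and those of H3C14 and H3C15 at 296 of 296 after a shift of 4 bp. A fragment from such a stretch fits both copies, and how the authors treated reads with several matches is not given in the sources used. The lack of a peak at these 6 genes is therefore uncertain. H4C11 and H4C12, unmarked on chromosome 6, had promoters equal at 295 of 300 bases. No other pair of histone promoters was equal at 90% or more of its bases, and every gene of these 4 pairs lacked a peak in both lists. The part of read placement in this was not tested.

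The 3 gaps between the chromosome 6 clusters were sparse beside the clusters. The clusters held 18 lipid-overload peaks in 371.4 kb, or 48.5 per Mb (28.7 to 76.6), and 4 mock peaks, or 10.8 per Mb (2.93 to 27.6). The gaps held 14 lipid-overload peaks in 1796 kb, or 7.79 per Mb (4.26 to 13.1), and 3 mock peaks, or 1.67 per Mb (0.344 to 4.88). The intervals of clusters and gaps overlap in mock and not in lipid overload. Chromosome 6 as a whole had 7.13 and 2.34 per Mb in lipid overload and mock. Clusters are packed with gene ends, where peaks of both lists concentrate, so the contrast of clusters and gaps is also one of gene density. Of the 18 lipid-overload peaks in these clusters, 17 lay at a histone gene end, and the other, of 4 fragments (1.09 to 10.2), lay inside H2BC5.

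Most gap peaks lay in the stretch of 846.8 kb between H4C8 and H2BC11, with 11 in lipid overload and 1 in mock. The highest by −log10 q was a peak of 19 fragments (11.4 to 29.7) at chr6:26520760-26521129, beside the noncoding RNA gene HCG11 and a leucine transfer RNA gene, with the milk-fat protein gene BTN1A1 as nearest coding gene at 10527 bp. A second peak of 13 fragments (6.92 to 22.2) stood next to it. BTN3A2, a butyrophilin gene, had 14 fragments (7.65 to 23.5) at its end, and a site in the noncoding RNA gene LINC00240 and the pseudogene GUSBP2 had 10 (4.80 to 18.4). None of these 4 had a mock peak. Of the gap's 9 other coding genes, 5 were marked in lipid overload and 0 in mock, where all protein-coding genes stood at 44.3% and 13.8%. Of its 47 transfer RNA genes, 4 had a peak within 1 kb in lipid overload and 0 in mock. A share over all transfer RNA genes is not given here, so such counts in the gaps cannot be called low or high.

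The other gaps held fewer peaks. Between H2AC12 and H2BC13, over 659.9 kb with 51 transfer RNA genes, there were 2 lipid-overload peaks and 1 mock peak, and none lay within 1 kb of a transfer RNA gene. Between H2BC1 and H1-1, over 289.7 kb, 1 site was listed in both conditions, with 9 fragments in lipid overload (4.12 to 17.1) and 7 in mock (2.81 to 14.4). It lies in the noncoding RNA gene LINC02980, with TRIM38 as the nearest coding gene. Of the 14 lipid-overload gap peaks, 6 lay at the end of a coding gene and 3 within 1 kb of a transfer RNA gene. On chromosome 1, the 78.6 Mb between the clusters held 11.5 lipid-overload and 3.45 mock peaks per Mb, close to the 11.7 and 3.50 of the whole chromosome.

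**Figure D5:**
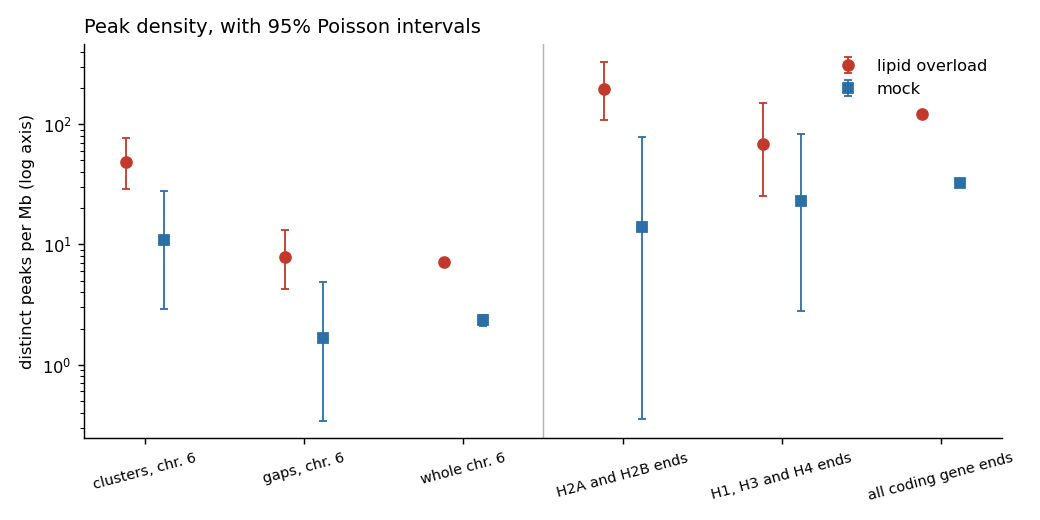
Distinct peaks per Mb, on a log axis, for lipid overload (red circles) and mock (blue squares) with exact 95% Poisson intervals; the left part shows all sequence of the chromosome 6 clusters, gaps and whole chromosome, the right part only sequence within 1 kb of gene ends. Clusters stand above gaps in lipid overload (48.5 against 7.79 per Mb). In mock they do so on 4 against 3 peaks, with overlapping intervals (2.93 to 27.6 and 0.344 to 4.88). At gene ends in lipid overload, H2A and H2B genes (195) and H1, H3 and H4 genes (68.8) have overlapping intervals. Both intervals take in the value of all coding genes (120).

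Genes whose products act on the clusters, or replace or carry their products, were looked at beside them. Of 12 genes for variant and replication-independent histones, 9 were marked in lipid overload (95% interval of the share, 42.8% to 94.5%) and 2 in mock (16.7%, 2.09 to 48.4). CENPA, the H3 variant of centromeres, had 26 fragments in lipid overload, H2AX, whose product is mapped here, 27, and H3-3B 12, all without a mock peak. H3-3A, which like H3-3B encodes the replacement histone H3.3, had 24 in lipid overload and 9 in mock, and H2AZ2 15 and 6. H2AJ, H3-5 and MACROH2A2 had none.

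Of 22 genes for histone gene transcription and histone messenger RNA processing, 20 had a lipid-overload peak (90.9%, 70.8 to 98.9) and 5 a mock peak (22.7%, 7.82 to 45.4). The S-phase kinase gene CDK2 had 46 fragments in lipid overload and 25 in mock. NFYA and NFYB, which encode subunits of the CCAAT-binding factor, had 34 and 30 in lipid overload only, the scaffold gene SYMPK of the cleavage complex 29 and TBP, the TATA-binding protein gene, 23. CASP8AP2, a histone locus body component, had 20 in lipid overload and 6 in mock. LSM10 and CSTF2T had no peak.

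Of 17 histone chaperone genes, 14 had a lipid-overload peak (82.4%, 56.6 to 96.2) and 6 a mock peak (35.3%, 14.2 to 61.7). ANP32E, an H2A.Z chaperone gene, had 35 fragments in lipid overload and 12 in mock, and ASF1B, an H3-H4 chaperone gene, 32 and 11. CHAF1A, of the complex that loads histones at replication forks, had 27 in lipid overload only, and NAP1L4 20. HIRA, which deposits H3.3, had 18 in lipid overload and 8 in mock, and RBBP4 16 and 9. ASF1A, SUPT16H and CHAF1B had none. These 3 lists stand beside backgrounds of 44.3% in lipid overload and 13.8% in mock. The intervals of the processing and chaperone lists in lipid overload lie above that of the clustered genes (30.2 to 54.5). That comparison is descriptive only, because the lists were chosen with earlier results of these data known. The interval of the clustered genes also treats genes that share peaks as separate. These genes are mostly longer, and the part of gene length was not tested.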

How the data were processed

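Peak lists of 1 lipid-overload and 1 mock γH2AX library were used. The authors' tools, per the submitters' processing notes, included BWA, FastQC, deepTools and MACS2 2.1.2, on build hg38. Their settings, and whether IgG served as control, are not given in the sources used. Each deposited list gives, per peak, a score, a fold enrichment (a linear ratio), −log10 p, −log10 q and the summit, which are the authors' own values. Fragments over a summit were solved from fold and p under the MACS2 formulas; a whole number fitted 100% of peaks within 0.0001 in log10 p, and the step was tested on simulated data. The spacing of the local backgrounds gave mean fragment lengths of 124.46 bp in lipid overload and 136.77 bp in mock and, with the lowest background, a depth ratio of 2.62. If IgG served as control, this ratio may not be that of the γH2AX libraries. Total depth is unknown. The 95% intervals take in counting error alone, as PCR copies of one molecule are not independent.

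Gene spans and promoters came from RefSeq GRCh38.p14, the coordinates of hg38, after 153 protein-coding genes out of chromosome order by over 1 Mb were set aside. A gene end is 1 kb either side of either end of the span, and overlap of 1 bp counted. Every histone gene with a peak is named, as are the 5 highest gap peaks and, of each related list, 6 genes by −log10 q and those without a peak, except 1 that is not reported here. The histone genes and lists were chosen with earlier results of these data known. Python 3.11.15, numpy 2.4.6, pandas 2.3.3 and scipy 1.17.1 were used.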

Additional observations from a re-analysis of the deposited data

How the results depend on the processing

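With 1 library per condition no replicate could be left out. No paired analysis was possible because each condition has 1 library and the results come from no test. The counts were recomputed with peaks of −log10 q of at least 5, fold of at least 5, lists of equal length, peaks within 1 kb merged, windows of 500 bp or 3 kb, and whole gene bodies. Of 55 recomputed values, 43 stayed within 1.5 times the reported one. With lists of equal length, 15 histone genes (21.7%) were marked in lipid overload, 11 of them in lipid overload only, on 8 distinct peaks, where all protein-coding genes stood at 26.4%. At −log10 q of at least 5, 18 genes (26.1%) on 11 peaks were marked in lipid overload and 2 genes (2.90%) on 1 peak in mock, against 30.4% and 3.97% of all genes. Requiring 50% overlap of each peak left 1 shared site in place of 3. The split by type, computed after the data were seen, was 12 H2A and H2B genes against 3 H1, H3 and H4 genes with equal lists, 13 against 5 at −log10 q of at least 5, and 23 against 11 with 3 kb windows. Most peaks rest on under 15 fragments, so single genes can enter or leave the lists by counting error.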
